A study of Mus musculus with 2 samples.

Results

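Endoplasmic reticulum-associated degradation, ERAD, is the route by which misfolded proteins of the endoplasmic reticulum (ER) are carried back into the cytosol and destroyed by the proteasome. It was followed here through 10 genes: Herpud1, Sel1l, Syvn1, Derl1, Derl2, Edem1, Edem2, Os9, Vcp and Ubxn4. They were chosen by symbol, as factors that recognise, ubiquitinate or pull out misfolded ER proteins, out of 10982 genes in the table. The choice was made with values of these libraries in view, so their levels and ratios are given as a description. All 10 had a value in both libraries and passed the minimum of 1 FPKM in the higher library. FPKM is a level per transcript length and per library total, and where 2 values are given the control comes first.

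RNA was measured in cultures labelled as mouse neonatal cardiomyocytes, taken from heart. One culture had been transfected with a negative control and the other with an antagomir, a modified oligonucleotide that pairs with and blocks a small RNA, directed at FERPIR. FERPIR is a piRNA, a small RNA of the class bound by PIWI proteins. The treatment field says PBS in both samples, and neither strain, age in days, number of animals nor number of cultures is stated. There was 1 library per group, 2 in all, so no difference below has a replicate check and no test was made.

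In ERAD, mannosidase-like proteins and lectins mark and hand over glycoproteins that have failed to fold. A membrane complex built around the ubiquitin ligase HRD1, the product of Syvn1, ubiquitinates them as they leave the ER, and the ATPase p97, the product of Vcp, pulls them into the cytosol. Several of these genes are known targets of the unfolded protein response, the transcriptional programme set off when unfolded proteins build up in the ER. In heart muscle cells HRD1 is known as part of the adaptive response to ER stress.

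The 10 genes summed to 635 FPKM with the control and 313 FPKM with the antagomir. This was 0.215% and 0.1001% of all FPKM in the table. All 10 were lower in the antagomir library, where 54% of all 10201 genes with at least 1 FPKM were lower. By step of the pathway, the ratios of the HRD1 ligase core were lowest, those of the derlins, Edem1 and Os9 lay between, and those of Edem2 and the p97 step were nearest to 0. On the scale of log2 of (antagomir FPKM + 1) over (control FPKM + 1), 3 of the 10 were at least 2-fold lower, against 3.79% of all genes, and 6 were at least 1.5-fold lower, against 13.4%. None was 1.5-fold or 2-fold higher, against 10.8% and 2.88% of all genes. Since the genes were chosen with this contrast known, nothing is read from these shares. The median log2 ratio of the 10 was -0.83, beside -0.05 for all genes, whose SD across genes was 0.55.

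**Figure D1:**
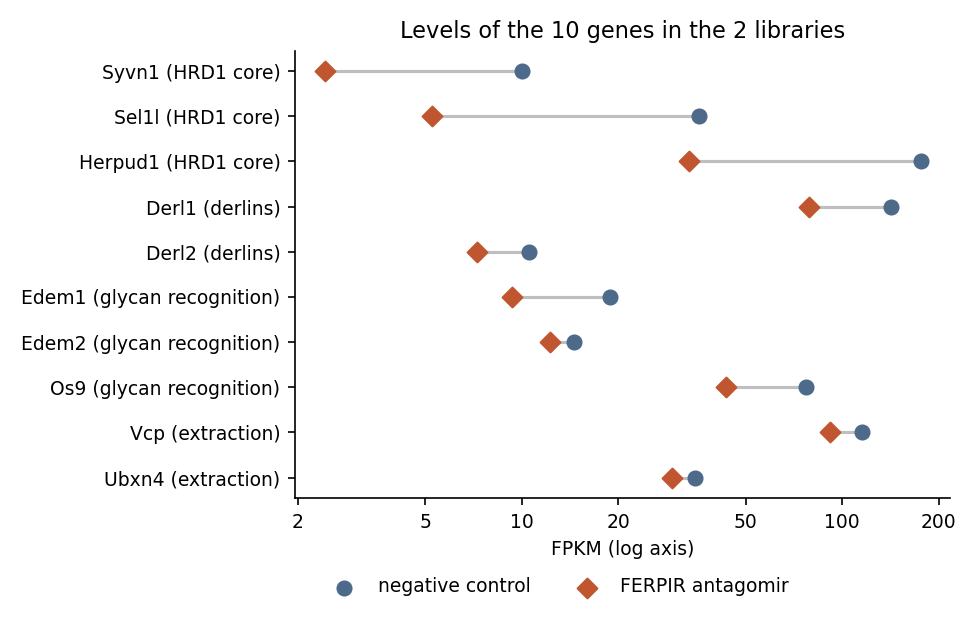
Level of each of the 10 genes in FPKM on a log axis, with a circle for the negative control library and a diamond for the FERPIR antagomir library, grouped by step of the pathway. The diamond lies to the left of the circle for all 10 genes, and the gap is widest for Sel1l, Herpud1 and Syvn1 and narrowest for Ubxn4 and Edem2.

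The 3 genes of the ligase core had the lowest ratios. Syvn1 (ENSMUSG00000024807.17, chr19:6046576-6053712, plus strand, GRCm38) encodes the membrane ubiquitin ligase HRD1. Sel1l (ENSMUSG00000020964.14, chr12:91806043-91849157, minus strand) encodes the partner that stabilises HRD1 and receives substrates in the ER lumen. Herpud1 (ENSMUSG00000031770.16, chr8:94386438-94395377, plus strand) encodes a membrane protein with a ubiquitin-like domain that joins HRD1 to other parts of the complex.

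The promoters of these genes are shown because the 3 genes had the lowest ratios and because elements of ER stress promoters were searched in them. The promoter of Vcp, which differed little, is shown beside them. Each window is a RefSeq promoter of 300 bases on GRCm38.p6, from 250 bases before the annotated start to 50 bases after it, 5′ to 3′ on the strand of the gene. The windows lie at chr8:94386179-94386478 for Herpud1, chr12:91849108-91849407 for Sel1l, chr19:6046326-6046625 for Syvn1 and chr4:43000458-43000757 for Vcp. Capitals mark a match to 1 of 4 elements, and the window of Sel1l has none.
Herpud1: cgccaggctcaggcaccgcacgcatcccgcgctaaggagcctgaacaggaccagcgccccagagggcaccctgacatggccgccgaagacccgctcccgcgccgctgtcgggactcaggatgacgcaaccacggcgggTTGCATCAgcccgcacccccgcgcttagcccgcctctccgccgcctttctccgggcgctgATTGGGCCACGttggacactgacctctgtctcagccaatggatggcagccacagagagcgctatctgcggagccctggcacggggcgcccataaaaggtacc
Sel1l: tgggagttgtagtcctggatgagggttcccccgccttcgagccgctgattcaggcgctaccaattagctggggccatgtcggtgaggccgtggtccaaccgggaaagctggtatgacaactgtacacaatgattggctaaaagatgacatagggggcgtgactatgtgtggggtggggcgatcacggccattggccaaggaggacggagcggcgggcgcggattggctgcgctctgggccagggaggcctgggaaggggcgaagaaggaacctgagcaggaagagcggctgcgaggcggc
Syvn1: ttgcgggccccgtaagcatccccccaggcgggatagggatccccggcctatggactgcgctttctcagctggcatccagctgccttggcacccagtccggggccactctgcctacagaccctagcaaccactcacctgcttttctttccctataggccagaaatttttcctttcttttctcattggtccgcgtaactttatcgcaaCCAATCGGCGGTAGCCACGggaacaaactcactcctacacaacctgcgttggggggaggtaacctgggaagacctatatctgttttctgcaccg
Vcp: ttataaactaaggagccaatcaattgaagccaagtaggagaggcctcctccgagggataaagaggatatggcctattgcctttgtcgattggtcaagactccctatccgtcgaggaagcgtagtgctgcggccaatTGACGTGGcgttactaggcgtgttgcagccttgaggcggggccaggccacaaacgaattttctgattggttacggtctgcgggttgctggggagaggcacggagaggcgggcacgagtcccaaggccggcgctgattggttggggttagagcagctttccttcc

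The elements were searched on both strands, without mismatches. The ER stress element ERSE is CCAAT, any 9 bases, then CCACG. It occurred in the Syvn1 window, from 44 bases before the start on the strand of the gene. Of all 32851 promoter windows of this length, 0.119% held it. ERSE-II is ATTGG, any base, then CCACG. The Herpud1 window held it from 52 bases before the start, as did 0.0365% of all windows. The Herpud1 window also held TTGCATCA, a form of the composite site bound by C/EBP and ATF proteins, from 112 bases before the start, and 0.895% of all windows held this element. The Vcp window held TGACGTGG, the core of the unfolded protein response element UPRE, from 114 bases before the start, as did 0.676% of all windows. The last 5 bases of that match are CCACG on the other strand, the same letters that end an ERSE. Counted over the 8537 genes of the table with a window, 0.141% held ERSE and 0.0937% ERSE-II. TTGCATCA was held by 0.785% of them and TGACGTGG by 1.03%.

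None of the 4 elements was found in the windows of Sel1l, Derl2, Edem1, Edem2, Os9 and Ubxn4, and Derl1 had no entry. Sel1l, with the lowest ratio of the 10, had CCAAT at 4 places and CCACG at 1, at other spacings. On their own these letters are common. Of the 8537 genes of the table with a window, 44.2% held CCAAT and 53.1% held CCACG. Of the 9 genes with a window 3 were at least 2-fold lower, against 3.56% of the 7975 genes of the table with a window and at least 1 FPKM. A match describes the letters in the window and is not a measured site, and a window without a match says only that these letters are not in it.

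**Figure D2:**
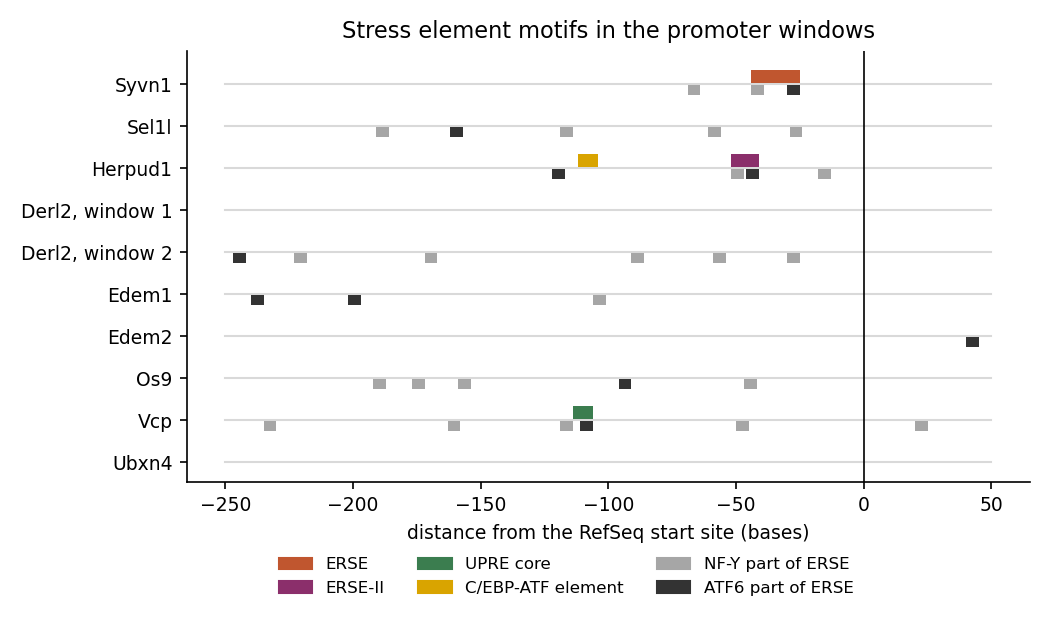
Position of each motif match along the 10 promoter windows of 9 genes, in bases from the RefSeq start site at 0, with wide coloured bars for the 4 elements above the line and small bars for CCAAT and CCACG on their own below it. The whole elements occur in the windows of Syvn1, Herpud1 and Vcp, while the small bars, grey for CCAAT (the NF-Y part of ERSE) and black for CCACG (its ATF6 part), are spread over most windows.

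Herpud1 had 175.7 FPKM with the control and 33.4 FPKM with the antagomir. It was the most abundant of the 10 in the control and the fourth in the antagomir library. Its log2 ratio was -2.36, 5.14-fold lower, and 13 of the 10201 genes had a lower ratio. The gap of 142 FPKM made up 44.2% of the summed difference of the 10 genes. Without Herpud1 the other 9 summed to 459.5 and 279.7 FPKM, a ratio of 1.64 in place of 2.03.

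Sel1l had 35.7 FPKM with the control and 5.23 FPKM with the antagomir (log2 ratio -2.56). This was the lowest ratio of the 10, with 7 genes of the table below it. Syvn1 had 9.98 and 2.43 FPKM (log2 ratio -1.68), with 63 genes below it. Syvn1 was the least abundant of the 10 in both libraries. In the control library Sel1l stood at 3.58 times the FPKM of Syvn1, and in the antagomir library at 2.16 times, so the level of the adaptor was further down than that of the ligase.

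The core genes together had 221.4 FPKM with the control and 41.0 FPKM with the antagomir. Their share of the sum over the 10 genes was 34.9% and 13.1%. Exons of Syvn1 share 91 bases with Mrpl49 on the opposite strand, and whether reads were assigned by strand is not stated. Mrpl49 itself was higher in the antagomir library, with 30.4 and 41.7 FPKM. No exon of Herpud1 or Sel1l overlaps another annotated gene.

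The derlins are membrane proteins related to rhomboid proteases, without their activity, that help move substrates across the ER membrane. Derl1 (chr15:57869502-57892448, minus strand) had 142.5 FPKM with the control and 78.9 FPKM with the antagomir (log2 ratio -0.85). Derl2 (chr11:71007164-71019841, minus strand) had 10.6 and 7.22 FPKM (log2 ratio -0.49), under 1.5-fold. Derl1 was the main derlin in both libraries, at 13.5 times the FPKM of Derl2 in the control and 10.9 times in the antagomir library. Derl2 shares 231 exon bases with Mis12 on the opposite strand, which had 17.2 and 16.2 FPKM. Derl3, the third derlin, was not listed in the table used here.

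The balance between Derl1 and the core also differed between the libraries. Derl1 stood at 3.99 times the FPKM of Sel1l in the control library and at 15.1 times in the antagomir library. Herpud1 stood at 1.23 times the FPKM of Derl1 in the control and at 0.423 times in the antagomir library.

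Among the genes that read glycans, Edem1 and Os9 were lower by more than 1.5-fold and Edem2 by less. EDEM1 and EDEM2 are mannosidase-like proteins that trim the glycans of misfolded proteins, EDEM2 acting in the first trimming step, and OS9 is a lectin that passes trimmed proteins to SEL1L. Edem1 (chr6:108828641-108859356, plus strand) had 18.8 FPKM with the control and 9.34 FPKM with the antagomir (log2 ratio -0.94). That is just under 2-fold on this scale and past it with a pseudocount of 0.1, where the log2 ratio was -1.004, and as TPM, where it was -1.07. Edem2 (chr2:155701677-155729475, minus strand) had 14.5 and 12.2 FPKM (log2 ratio -0.23). The order of the pair by FPKM was therefore turned: Edem1 stood at 1.299 times the FPKM of Edem2 in the control library and at 0.765 times in the antagomir library. After a trend over transcript length and GC content was removed, their log2 ratios lay closer together, at -0.77 and -0.29.

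Os9 (chr10:127095650-127121131, minus strand) had 77.4 and 43.3 FPKM (log2 ratio -0.82). It stood at 2.16 times the FPKM of Sel1l, the protein it delivers to, in the control library and at 8.29 times in the antagomir library. The 3 glycan genes summed to 110.7 FPKM with the control and 64.9 FPKM with the antagomir.

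The genes of extraction from the membrane had log2 ratios near 0, as had Edem2. Vcp (chr4:42979963-43000507, minus strand) had 115.5 FPKM with the control and 91.6 FPKM with the antagomir (log2 ratio -0.33). It was the third most abundant of the 10 in the control and the first in the antagomir library. Ubxn4 (chr1:128243964-128279378, plus strand), which encodes an ER membrane protein that binds p97, had 34.6 and 29.5 FPKM (log2 ratio -0.22), the highest of the 10. In all, 2763 genes of the table had a lower ratio than Vcp and 3548 a lower ratio than Ubxn4. Vcp shares 352 exon bases with 1700022I11Rik, a gene on the opposite strand that is not listed in the table used here.

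Vcp and Ubxn4 stood in a similar proportion in both libraries, with 3.34 times as much Vcp as Ubxn4 by FPKM in the control and 3.11 times in the antagomir library. Vcp stood at 3.23 times the FPKM of Sel1l in the control library and at 17.5 times in the antagomir library. The share of the 10-gene sum held by Vcp and Ubxn4 was 23.6% and 38.7%. From the most to the least abundant, the 10 genes spanned 17.6-fold in FPKM in the control and 37.7-fold in the antagomir library.

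**Figure D3:**
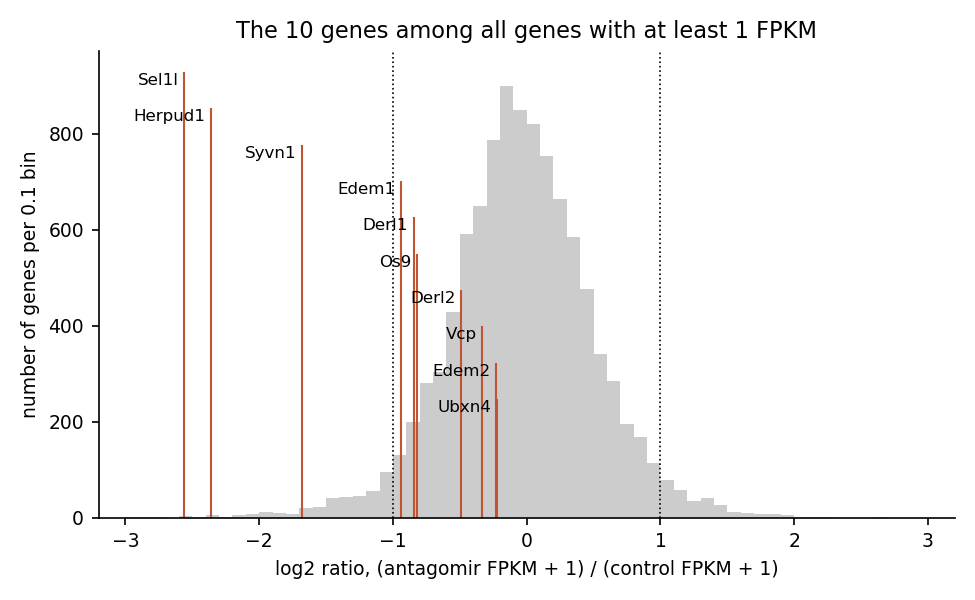
Number of genes in bins of 0.1 of the log2 ratio for all 10201 genes with at least 1 FPKM (grey), with a red line at the ratio of each of the 10 genes, whose height only makes room for the name, and dotted lines at 2-fold; 4 genes lie beyond the axis. Sel1l, Herpud1 and Syvn1 lie in the lower tail, from -2.56 to -1.68, and Vcp, Edem2 and Ubxn4 lie inside the bulk of the genes.

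The other genes of the pathway were taken from a list of 68 in 4 groups, of which 66 had a value and 65 reached 1 FPKM. Of these 65, 12 were at least 1.5-fold lower with the antagomir and 1 was at least 1.5-fold higher, against 10.8% of all genes higher. The lower share was 18.5%, near the 13.4% of all genes. As TPM 20 were 1.5-fold lower, 30.8%, where 19.97% of all genes were. At 2-fold, 4 were lower, 6.15% against 3.79% of all genes, and 1 was higher, against 2.88% of all genes. Their median log2 ratio was -0.27. They summed to 1507 FPKM with the control and 1408 FPKM with the antagomir.

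Among 9 further genes of glycan recognition and trimming the median log2 ratio was -0.20, with 2 at least 1.5-fold lower, against 13.4% of all genes. Uggt1, the enzyme that adds glucose back to unfolded glycoproteins so that they can try to fold again, had 13.5 and 6.40 FPKM (log2 ratio -0.98). Edem3, the third gene of the EDEM family, had 9.77 and 5.25 FPKM. Erlec1, which encodes a lectin related to OS9, had 19.2 and 16.5 FPKM (log2 ratio -0.20), and Man1b1, the ER mannosidase I gene, had 15.2 and 17.2 FPKM. Fbxo6, which encodes a cytosolic ligase subunit that binds glycans, had 16.7 and 18.3 FPKM; its log2 ratio was 0.12, and -0.05 after a trend over length and GC content was removed.

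Of 18 other membrane ubiquitin ligases and ubiquitin-conjugating enzymes, 5 were at least 1.5-fold lower, against 13.4% of all genes. None was 1.5-fold higher, against 10.8%, and the median was -0.35. Rnf185, a ligase of another ER membrane complex, had 41.1 and 14.5 FPKM (log2 ratio -1.44). March6, the ligase of a further ERAD branch, had 13.0 and 6.53 FPKM (log2 ratio -0.90). Rnf170, the ligase for activated IP3 receptors, had 1.81 and 0.36 FPKM, 2.07-fold lower, at low levels. Rnf5, a close relative of Rnf185, had 23.9 and 26.2 FPKM; its log2 ratio, 0.13, was also turned, to -0.13, by removal of the length and GC trend. Trim13, another ER ligase, had 6.85 and 7.63 FPKM.

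Of 12 membrane scaffolds and rhomboids, 3 were at least 1.5-fold lower, against 13.4% of all genes, and the median was -0.29. Rhbdd1, a rhomboid protease that cuts ERAD substrates in the membrane, had 17.2 and 5.95 FPKM (log2 ratio -1.39). Erlin1, which with Erlin2 forms the complex that brings IP3 receptors to the ligase RNF170, had 22.96 and 9.41 FPKM (log2 ratio -1.20). Bcap31, an ER membrane protein of sorting and quality control, was at the upper end with 144.5 and 193.5 FPKM, a log2 ratio of 0.42. Selenok, a selenoprotein of the ER membrane, had 67.6 and 78.0 FPKM.

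Of the 4 groups, the p97 cofactors, ubiquitin shuttles and deubiquitinases had the largest share within 1.5-fold, 23 of 26 genes, and a median of -0.25. Of the 26, 2 were at least 1.5-fold lower and 1 was higher, against 13.4% and 10.8% of all genes. Nploc4 and Ufd1, which together form the main p97 adaptor for ERAD, had 22.1 and 18.1 FPKM and 9.22 and 8.74 FPKM; these 2 genes, and Erlec1 above, were named after their values were seen. Ubqln2, a ubiquitin shuttle, had 23.7 and 14.9 FPKM. The 3 genes of the BAG6 complex, which holds hydrophobic proteins soluble in the cytosol, differed in direction. Bag6 had 29.2 and 18.0 FPKM (log2 ratio -0.67). Get4 had 33.0 and 45.6 FPKM (log2 ratio 0.45). Ubl4a had 14.6 and 30.7 FPKM (log2 ratio 1.03, and 0.98 as TPM), and its exons overlap those of Slc10a3 on the same strand.

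**Figure D4:**
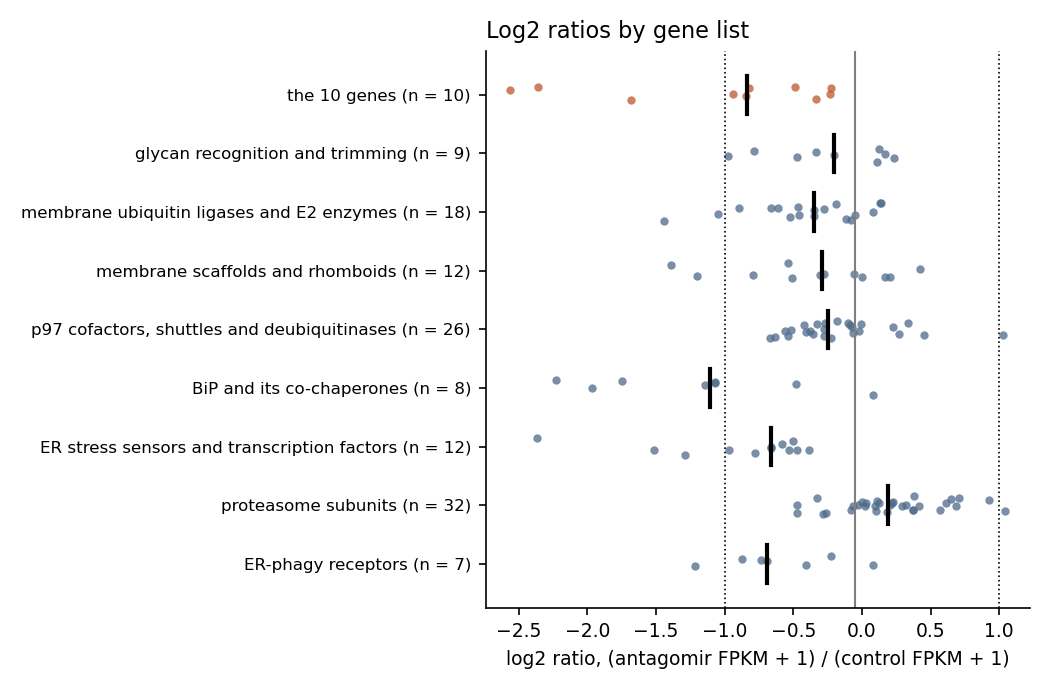
Log2 ratio of each gene (points, spread vertically for legibility) in the 10 genes and in 8 other lists, with the list median as a black bar, the median of all genes as a grey line and 2-fold limits as dotted lines. The medians of the 10 genes, the BiP list, the stress sensor list and the ER-phagy list lie below -0.6, and that of the proteasome lies above 0.

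The proteasome, the step after extraction, had more genes above 0 than below. Of 32 proteasome subunits, none was 1.5-fold lower, against 13.4% of all genes. In the antagomir library 6 were at least 1.5-fold higher, against 10.8% of all genes. The median log2 ratio was 0.19, with 9 genes below 0. With the length and GC trend removed, 14 were below 0 and the median was 0.04. In that setting 3 were at least 1.5-fold higher, near the share of all genes, 8.49%. As TPM the median was 0.11, and 4 were at least 1.5-fold higher, near the 10.5% of all genes. Psmb5, the catalytic subunit with chymotrypsin-like activity, had 112.6 and 214.5 FPKM; its log2 ratio was 0.92, and 0.49 after removal of the length and GC trend. Psmd13, a subunit of the regulatory lid, had 27.5 and 57.6 FPKM, 2.06-fold higher, with exons that overlap Sirt3, and was under 2-fold as TPM (log2 ratio 0.98) and with the trend removed (0.94). Psmd3 and Adrm1, at the lower end, had log2 ratios of -0.48 and -0.47.

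Most genes listed upstream of ERAD were lower too. BiP, the product of Hspa5, keeps unfolded proteins soluble in the ER. Of 8 genes for BiP and its co-chaperones 6 were at least 2-fold lower, against 3.79% of all genes. Dnajb9, a co-chaperone that passes misfolded proteins to ERAD, had 34.5 and 6.59 FPKM (log2 ratio -2.23). Dnajc10, a reductase that opens disulfide bonds before export, had 45.8 and 48.5 FPKM (log2 ratio 0.08). All 12 genes of the ER stress sensors and their transcription factors had log2 ratios below 0, against 54% of all genes. Of them 8 were at least 1.5-fold lower, against 13.4%. Ddit3 had the lowest ratio of the 12, with 608.5 and 117.1 FPKM (log2 ratio -2.37), and its exons overlap those of Mars. Atf4 had 563.5 and 405.9 FPKM (log2 ratio -0.47). Atf6, whose product is cut to a transcription factor in ER stress, had 41.1 and 13.8 FPKM (log2 ratio -1.51). Xbp1, whose spliced form drives ERAD genes, had 72.7 and 29.1 FPKM, and the gene values do not separate its spliced and unspliced forms.

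ER-phagy, in which pieces of the ER are taken to the lysosome, is the other way to clear misfolded ER protein. Of its 7 receptor genes, 4 were at least 1.5-fold lower, against 13.4% of all genes. None was 1.5-fold higher, against 10.8%, and the median was -0.69. Tex264 had 51.6 and 21.6 FPKM (log2 ratio -1.22), and Rtn3 had 42.0 and 22.4 FPKM. Atl3, at the upper end, had 17.1 and 18.1 FPKM.

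Across the whole table, long transcripts had lower ratios than short ones. The Spearman rho across the genes, which are not independent replicates, was -0.30, and the median of 5 equal groups by length was 0.26 for the shortest and -0.20 for the longest. The 10 genes have longest annotated transcripts of 1952 nucleotides (Herpud1) to 6300 nucleotides (Sel1l). With the trend over length and GC content removed, Herpud1 had a log2 ratio of -2.46, Sel1l of -2.38, Syvn1 of -1.64 and Edem1 of -0.77, and the counts of 3 at 2-fold and 6 at 1.5-fold were the same.

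**Figure D5:**
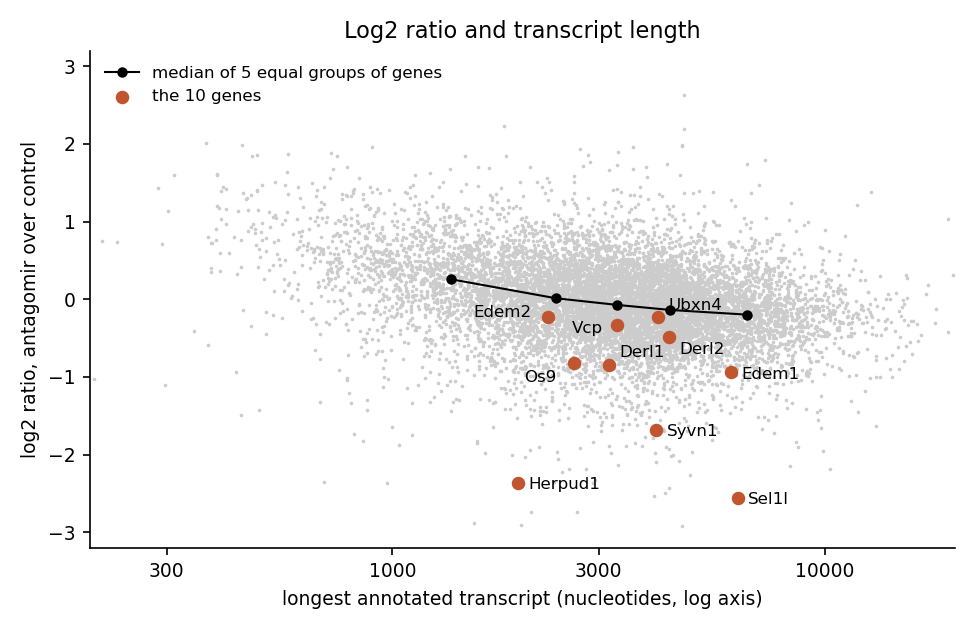
Log2 ratio against the longest annotated transcript in nucleotides (log axis) for genes with at least 1 FPKM (grey), with the medians of 5 equal groups of genes by length (black) and the 10 genes in red; 4 genes lie beyond the vertical and 6 beyond the horizontal axis. The black line runs from 0.26 to -0.20 and Ubxn4 lies near it. Herpud1 (1952 nucleotides), Syvn1 (4080 nucleotides) and Sel1l (6300 nucleotides) lie far below it.

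Markers of cell types differed between the libraries as well. Of 15 cardiomyocyte markers 11, Myh6, Myh7 and Actc1 among them, were not listed in the table used here, so the labelled cell type was checked on 4 only. Every listed line reached 0.5 FPKM in the higher library, so unlisted genes may lie below that level, though no filter is stated. The 4 with a value summed to 20.6 FPKM with the control and 46.5 FPKM with the antagomir. Of them 3 were at least 1.5-fold higher, against 10.8% of all genes. In the control Tnnt2, Tnni1, Tnnc1 and Nkx2-5 had 1.48, 1.04, 4.39 and 13.7 FPKM, beside 358 FPKM for the fibroblast marker Col3a1. These markers do not show cardiomyocytes as the main cells of the cultures. Of 10 fibroblast markers 6 had a value, summing to 548 and 341 FPKM, with 3 at least 1.5-fold lower, against 13.4% of all genes. Col3a1 held most of that sum, with 358 and 249 FPKM (log2 ratio -0.52), under 1.5-fold. Pdgfra was higher, with 1.19 and 1.66 FPKM. Of 4 smooth muscle markers 3 had a value, with a median log2 ratio of 0.49. Acta2 was lower, with 1305 and 845 FPKM, while Tagln (18.2 and 37.8 FPKM) and Cnn1 (1.79 and 2.91 FPKM) were higher. Only 1 of 5 leukocyte markers, Lyz2, had a value, at 3.28 and 4.44 FPKM, and none of 6 endothelial markers did. Of 3 epicardial markers Msln alone had a value, at 16.6 and 9.80 FPKM. Of 5 erythroid markers Hba-a1 (10.2 and 11.5 FPKM) and Hba-a2 (4.22 and 9.23 FPKM) had values. In such bulk libraries fewer cells of a type and less RNA per cell cannot be told apart. The part of these shifts in the ERAD values was not tested.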

How the data were processed

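RNA was measured in 2 libraries, 1 per group, with groups taken from the sample titles. The authors deposited gene-level FPKM values. Per the submitters' processing notes they used cutadapt, HISAT2 and StringTie 1.3.3 on GRCm38. The annotation release, the settings, the use of strand and any filter are not given in the sources used, and the labels' protocols describe isolation of polyadenylated RNA and a stranded kit. In all 10992 lines the higher value was above 0.5 FPKM. Values of 10 symbols on several lines were summed. Low FPKM values times transcript length did not fall on whole multiples of a read, so the depth is unknown and no counting interval is given.

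A pseudocount of 1 FPKM was added to both values before the log2 ratio was taken, which shrinks the differences of low genes, and folds carry the same pseudocount. Genes reaching 1 FPKM in either library were counted at 1.5-fold and 2-fold. The members, lists and limits were chosen with earlier results of these data known. Named were the 10 genes and, in each other list, genes at least 2-fold apart and up to 2 at either end that reached 5 FPKM, of which the text prints a part; other genes are marked where they are named. Transcript lengths, GC content and exon overlaps came from GENCODE M21, which held 10972 of the genes, and promoters from RefSeq on GRCm38.p6, matched by symbol for 9 of the 10 genes. The work was done in Python 3.11.15 with pandas 2.3.3, numpy 2.4.6 and matplotlib 3.10.9. On simulated data for 6341 genes all 100 genes set 4-fold higher and all 100 set 4-fold lower were recovered at 2-fold. These genes averaged at least 5 FPKM and were given noise far below the spread of the real ratios. The full recovery follows from that setting and checks only the counting.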

Additional observations from a re-analysis of the deposited data

How the results depend on the processing

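No paired analysis was possible because each group had 1 library, and for the same reason no library could be left out. All 10 genes kept a log2 ratio below 0 under pseudocounts of 0.1 and 0.01, no minimum or one of 5 FPKM, TPM, rescaling without the mitochondrial genome's genes, globins and ribosomal proteins, centring, and removal of the length and GC trend. Their median ranged from -0.92 to -0.78, with 2 to 4 genes at least 2-fold lower and 5 to 7 at least 1.5-fold lower, the lowest counts being those over the 7 genes without exon overlaps. Edem1 passed 2-fold under both other pseudocounts and both rescalings, at -1.004 to -1.07. With the trend removed Dnajc3, Rnf170 and Psmd13 came under 2-fold, at -0.92, -0.95 and 0.94. As TPM Uggt1 and March6 passed 2-fold, at -1.13 and -1.04. So did Mbtps1 of the stress sensor list and Ccpg1 of the ER-phagy list, at -1.11 and -1.06. Mbtps1 and Ccpg1 were named after their values were seen. The ER-phagy median was -0.55, under 1.5-fold, over the 6 genes reaching 5 FPKM. Over all genes, those 2-fold lower and higher numbered 387 and 294 as reported, 635 and 492 with a pseudocount of 0.1, 676 and 524 with 0.01, 692 and 350 as TPM, 672 and 393 after the rescaling without those families, and 388 and 187 with the trend removed. Depth is unknown, so the precision of the lower values, such as those of Syvn1 and Rnf170, could not be set.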

Other observations

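The stress elements searched in the promoters of the 10 genes were also located over the rest of the table, in the 7975 genes with at least 1 FPKM and a promoter window, of which 3.56% were lower by 2-fold or more with the antagomir. ERSE was found in 12 of these genes, with a median log2 ratio of -1.12. None of the 12 was at least 1.5-fold higher, where 803 of the 7975 genes were. Of the 12, 8 were lower by 2-fold or more. Beside Syvn1 they included Calr (422 and 112 FPKM), Hsp90b1 (540 and 209 FPKM) and Creld2 (188 and 68.4 FPKM), chaperones and folding factors of the ER, and Alg12, a mannosyltransferase of glycan assembly (9.43 and 2.89 FPKM). The rest of the 8 were Hspa5, Dnajc3 and Zfp57. Dnajc3 came under 2-fold with the length and GC trend removed, at -0.92. Zfp57, a zinc finger gene, was at low levels, with 2.01 and 0.41 FPKM. Hnrnpa3, a nuclear RNA-binding protein gene with the same element, had 126 and 157 FPKM. ERSE-II was found in 8 genes, of which 3 were at least 2-fold lower: Herpud1, Dnajb11 and Nucb1, a calcium-binding protein gene with 18.6 and 7.2 FPKM.

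The C/EBP-ATF element TTGCATCA was found in 62 genes, with a median log2 ratio of -0.39. Of the 62, 11 (17.7%) were at least 2-fold lower and 3 at least 2-fold higher. Of all 7975 genes 3.56% were at least 2-fold lower, and 202 genes were at least 2-fold higher. The UPRE core TGACGTGG was found in 87 genes, with a median of -0.18. Of the 87, 5 (5.75%) were at least 2-fold lower, near the 3.56% of all 7975 genes, and 2 were at least 2-fold higher. Genes were named here after their values were seen. The table was filtered by level. Several of these genes belong to the lists above, so the element counts are not independent of those lists. Whether any of the elements is used in these cells was not measured.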
